A study of Mus musculus with 18 samples.

Results

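The expression of 35 genes that encode lysosomal enzymes and lysosomal membrane proteins was examined in primary mouse embryonic fibroblasts (MEFs) lacking the DNA polymerase epsilon subunit POLE4, the transcription factor TRP53, or both. The genes were chosen by name, and all 35 were found by their symbol among the 51912 genes of the count table. They comprise 6 cysteine cathepsins, 3 other proteases, 10 glycosidases, 4 sulfatases, 6 genes of lipid degradation and 6 membrane proteins.

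Lysosomes are acidic organelles in which proteins, glycans and lipids delivered by endocytosis and autophagy are degraded. Their soluble hydrolases are made in the endoplasmic reticulum, tagged with mannose 6-phosphate and sorted to the lysosome, where a vacuolar proton pump (V-ATPase) keeps the lumen acidic and heavily glycosylated membrane proteins such as LAMP1 and LAMP2 line the membrane. Many lysosomal genes carry an E-box-like motif in their promoters that is bound by the MiT/TFE transcription factors (TFEB, TFE3 and MITF), which mTORC1 holds in the cytoplasm when nutrients are plentiful. In cultured fibroblasts the lysosomal compartment enlarges when cells cease to divide, and beta-galactosidase, the product of Glb1, is the enzyme behind the staining widely used to mark senescent cells.

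RNA-seq was available for passage 1 MEFs of 6 genotypes, with 3 libraries each. Wild-type Pole4 (Pole4+/+) and homozygous null Pole4 (Pole4-/-) were each combined with 2, 1 or 0 functional copies of Trp53 (Trp53+/+, Trp53+/- and Trp53-/-). All cells were primary fibroblasts of a C57BL/6 background, taken from embryos of crosses between double heterozygous parents, and were grown in 15% serum at 5% oxygen, with no drug or other treatment. Both alleles are constitutive, so every cell of the embryo carried them. Levels are CPM, a gene's counts over the size of its library expressed in megareads, with sizes adjusted by the TMM method, and a gene is called where the Benjamini-Hochberg adjusted p of edgeR's quasi-likelihood test is under 0.05 over all 15710 genes tested. All 35 lysosomal genes were tested, the lowest count of any of them in any library being 15, for Ctsf.

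Library totals ran from 9535971 to 35319918 counts (median 22781543), and ribosomal RNA genes took between 0.968% and 42.5% of a library. Trp53 itself stood at 86.6 to 96.1 CPM in Trp53+/+ libraries of the Pole4+/+ and 64.2 to 72.7 CPM in those of the Pole4-/- background, against 8.65 to 12.1 CPM over the 6 Trp53-/- libraries. Pole4 stood at 9.26 to 12 CPM over the 9 Pole4-/- libraries, against 14.2 to 26.4 CPM over the 9 Pole4+/+ libraries, so that transcript of the locus was reduced and not absent. Of the 18 libraries 7 are male by their Y-linked transcripts, and the Pole4+/+ Trp53+/+ and Pole4+/+ Trp53-/- libraries are all female. Fibroblast markers summed to between 13717 and 30956 CPM in every library, and 14 macrophage markers to between 6.08 and 72.6 CPM. The labels do not say whether the libraries of a genotype came from separate embryos, so p-values measure the spread between these libraries.

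The promoters of the lysosomal genes were read for the palindrome CACGTG, the core of the motif that MiT/TFE factors bind, and for its extended form TCACGTGA, each of which reads the same on both strands. RefSeq promoters (250 bases before to 50 after the start site, GRCm38.p6) were matched for 31 of the 35 genes. The core was present in 13 of them (41.9%), against 8.09% of all genes with a promoter and 11.6% of those tested. The extended form, which contains the core, was present in 5 (16.1%), against 1.12% and 2.15%: Ctsa, Ctsd, Gla, Cln3 and Mcoln1. Stretches upstream of the start site are given 5′ to 3′ for 6 genes, with the motif in capitals. Ctsd, Glb1, Lamp1 and Mcoln1 are shown because their RNA was lower upon loss of Trp53 in Pole4-/- cells, and Gla and Cln3 because they carry the extended motif but did not pass the test there.
Ctsd (chr7:142387879-142387966, minus strand): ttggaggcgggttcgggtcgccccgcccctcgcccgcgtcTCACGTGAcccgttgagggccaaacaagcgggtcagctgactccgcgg
Glb1 (chr9:114400989-114401076, plus strand): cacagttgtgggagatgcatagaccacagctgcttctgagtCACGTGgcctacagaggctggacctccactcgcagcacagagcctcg
Lamp1 (chr8:13159059-13159160, plus strand): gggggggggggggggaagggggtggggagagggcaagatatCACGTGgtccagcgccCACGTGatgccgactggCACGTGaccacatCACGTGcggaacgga
Mcoln1 (chr8:3500407-3500518, plus strand): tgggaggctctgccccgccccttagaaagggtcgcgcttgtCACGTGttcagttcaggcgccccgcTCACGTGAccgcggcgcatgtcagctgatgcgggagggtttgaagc
Gla (chrX:134601153-134601255, minus strand): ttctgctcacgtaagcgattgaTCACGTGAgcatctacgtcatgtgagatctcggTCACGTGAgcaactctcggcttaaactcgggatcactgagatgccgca
Cln3 (chr7:126583311-126583426, minus strand): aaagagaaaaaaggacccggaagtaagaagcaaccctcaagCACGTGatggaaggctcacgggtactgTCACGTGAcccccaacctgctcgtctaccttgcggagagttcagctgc
Lamp1 carries 4 copies of the core within the stretch shown, more than any other of the 6. Whether any of these sites is bound in MEFs was not measured.

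Taken as a sum over the 35 genes, lysosomal RNA was most abundant in Pole4-/- Trp53+/+ MEFs, at 4782, 4827 and 4910 CPM in the 3 libraries. Pole4+/+ Trp53+/+ MEFs held 3262, 3069 and 4109 CPM. The lowest mean sum was that of Pole4-/- Trp53-/- MEFs, with libraries at 2720, 2502 and 2477 CPM. Libraries 2 and 3 of Pole4+/+ Trp53-/- were lower still, at 2405 and 2333 CPM, and library 1 of that genotype stood at 3647 CPM. Within the Pole4-/- background the means stepped down from 4840 ± 65.1 to 3598 ± 489 and 2566 ± 134 CPM (SD, n = 3 each) from Trp53+/+ over Trp53+/- to Trp53-/-, and the 3 genotypes did not overlap. In the Pole4+/+ background the corresponding means were 3480 ± 553, 3037 ± 141 and 2795 ± 739 CPM (SD, n = 3 each), with overlapping libraries. In RNA from whole cultures, fewer cells of a state and less RNA per cell cannot be told apart.

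**Figure D1:**
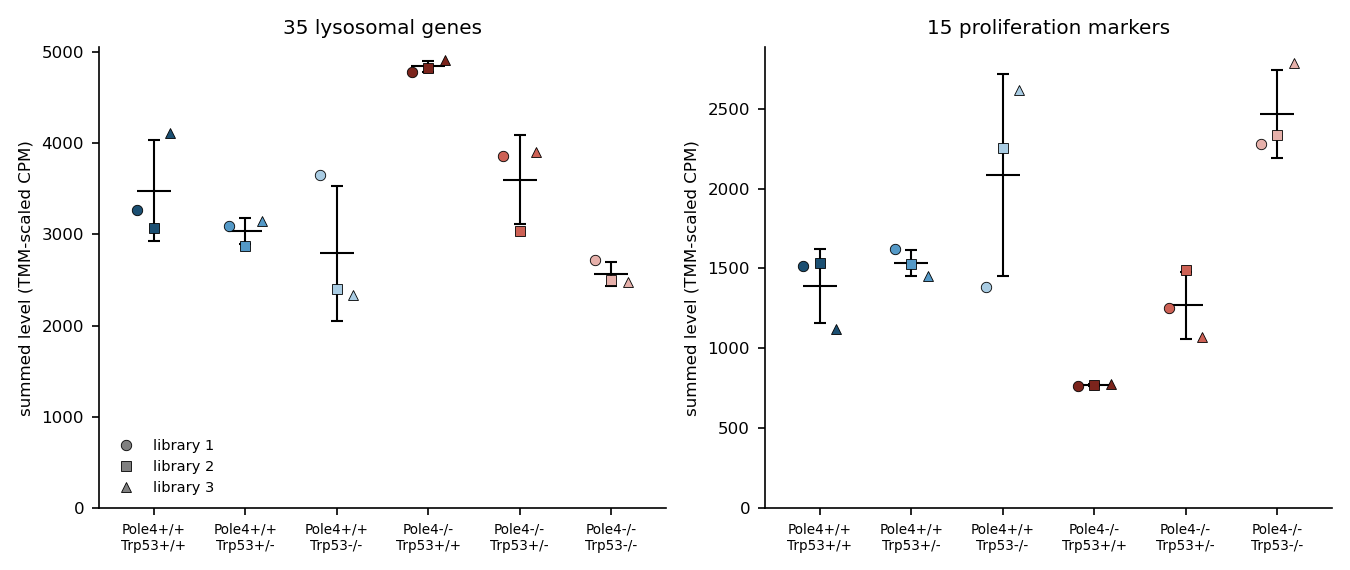
Summed level of the 35 lysosomal genes (left) and of 15 proliferation markers (right), in TMM-scaled CPM, for each library of the 6 genotypes, with the mean (horizontal bar) and SD (error bars) of 3 libraries. The Pole4-/- Trp53+/+ libraries lie highest on the left (4782 to 4910 CPM) and lowest on the right (763 to 777 CPM).

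Proliferation markers ran in the opposite order in the same libraries of the Pole4-/- background. There their sum was 763 to 777 CPM with both Trp53 copies, 1073 to 1489 CPM with a single copy and 2279 to 2784 CPM with none. In the Pole4+/+ background it was 1121 to 1533, 1454 to 1620 and 1384 to 2614 CPM in the same order. The part of cell division in the lysosomal levels was not tested.

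The pattern of the sum was shared by nearly all of its genes. The mean level was highest in Pole4-/- Trp53+/+ for 33 of the 35 genes, against 33.8% of all genes tested. Ctsk, which encodes the collagen-degrading cathepsin K, was highest in Pole4+/+ Trp53+/-, and Gusb, which encodes beta-glucuronidase, in Pole4+/+ Trp53+/+. The mean was lowest in Pole4-/- Trp53-/- for 31 genes, against 28.3% of all genes. Library 1 of Pole4+/+ Trp53-/-, the highest of its genotype for 34 genes, raised the means of that genotype. Libraries 2 and 3 of that genotype had lower sums over the 35 genes than any Pole4-/- Trp53-/- library. Trp53+/- lay between Trp53+/+ above and Trp53-/- below for 33 genes in the Pole4-/- background (31.7% of all genes) and for 25 in the Pole4+/+ background (20.0% of all genes). The span between the highest and lowest genotype mean ran up to 9.76 times for Ctsf, and was 4.02 times for Ctsh, 1.96 times for Hexa and 1.92 times for Fuca1.

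**Figure D2:**
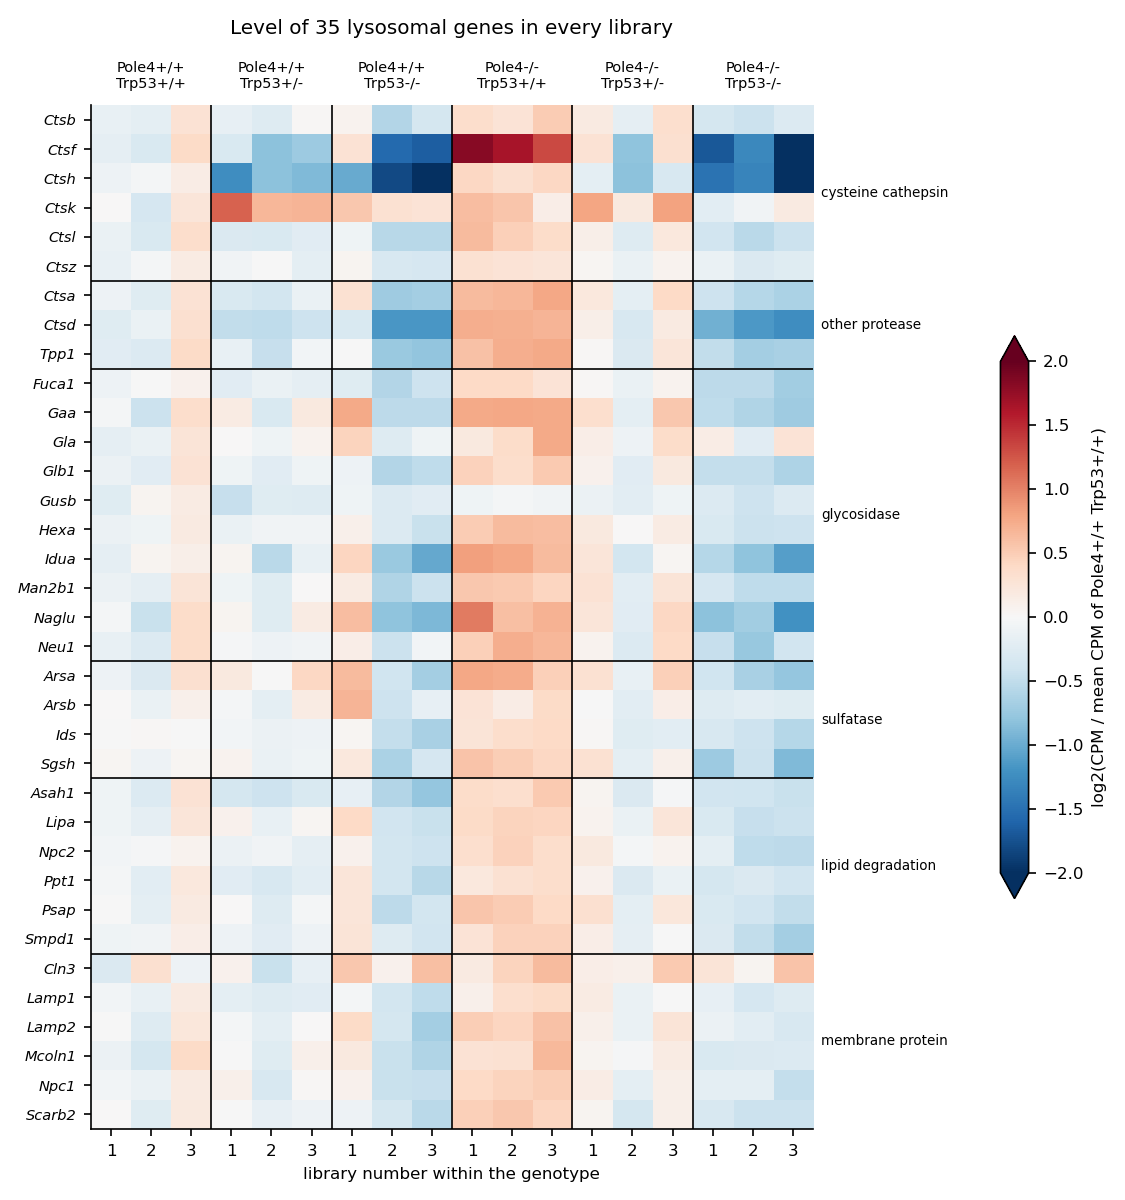
Level of each lysosomal gene (rows, grouped by role) in each of the 18 libraries (columns), as log2 of its CPM over the mean of the Pole4+/+ Trp53+/+ libraries, with colours ending at 2 units on either side. The Pole4-/- Trp53+/+ columns are red for most genes and the Pole4-/- Trp53-/- columns blue, while Ctsk, Gusb, Gla and Cln3 depart from the others.

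In some genotypes 1 library stood apart from the others for most of the genes. In Pole4+/+ Trp53+/+ MEFs, library 3 was the highest of the 3 for 32 of the 35 genes (35.1% of all genes). Library 1 of Pole4+/+ Trp53-/- was the highest for 34 (41.3% of all genes), with a sum of 3647 CPM against 2405 and 2333 CPM in libraries 2 and 3. Library 2 of Pole4-/- Trp53+/- was the lowest for all 35 (37.8% of all genes). Proliferation markers were lowest in the first 2 of these libraries among the 3 of their genotype, at 1121 and 1384 CPM, and highest in the last, at 1489 CPM. Library 2 of Pole4+/+ Trp53+/- was the lowest for 29 genes (37.5% of all genes), and its proliferation markers, at 1527 CPM, lay between the 1620 and 1454 CPM of the others. In Pole4-/- Trp53+/+ no library stood apart, the 3 being highest for 12, 7 and 16 and lowest for 15, 7 and 13 genes. Library 1 of Pole4+/+ Trp53-/- also held 254 CPM of Pdgfra, 41.7 CPM of Lum and 35 CPM of Dcn, fibroblast matrix and receptor genes that stood at 72.5 and 74.0, 3.03 and 3.72, and 3.53 and 3.23 CPM in the other libraries of that genotype. The part of these differences in the comparisons was not tested beyond leaving each library out.

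Per kilobase of exon, the most abundant of the 35 transcripts in Pole4+/+ Trp53+/+ MEFs were Lamp1 at 195, Ctsd at 165 and Psap at 127 CPM per kb. In Pole4-/- Trp53+/+ MEFs the level of Ctsd was 269 and that of Lamp1 236 CPM per kb. The least abundant were Cln3, which encodes a lysosomal membrane protein mutated in juvenile Batten disease, at 0.551, and Ctsf, which encodes cathepsin F, at 0.906 CPM per kb in Pole4+/+ Trp53+/+ MEFs.

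Loss of both Trp53 copies in Pole4-/- cells addressed how far the transcriptome of POLE4-deficient cells depends on TRP53. Of the 35 lysosomal genes 30 were lower in Pole4-/- Trp53-/- than in Pole4-/- Trp53+/+ MEFs (85.7%) and 0 were higher, where the background over all genes was 20.8% lower and 21.8% higher. Without adjustment 33 were lower and 0 higher at p under 0.05, and DESeq2 gave 30 lower and 0 higher. The log2 fold change was negative for all 35, with a median of -0.88 against -0.02 over all genes. The libraries of the 2 genotypes did not overlap for 32 genes, against 28.5% of all genes. With 3 libraries against 3, the smallest p of an exact two-sided permutation test is 0.1, which is the value for each of these 32 genes.

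Of the 6 cysteine cathepsins, which cleave proteins in the acidic lumen, 5 were lower. Ctsf stood at 16.1, 14.4 and 11.4 CPM in the Pole4-/- Trp53+/+ libraries and at 1.41, 1.88 and 0.995 CPM in the Pole4-/- Trp53-/- libraries. Ctsf (ENSMUSG00000083282, chr19:4855130-4860918, plus strand) had the largest change of the 35 genes, 9.7-fold lower with a log2 fold change of -3.28 ± 0.47 (SE, edgeR adjusted p = 9.55e-05). Ctsh, which encodes the aminopeptidase cathepsin H, fell from 41.9, 39.6 and 42.3 CPM to 11.3, 12.7 and 6.7 CPM. Its libraries lay far apart, and the difference was 4.0-fold (log2 -2.0 ± 0.26 SE, edgeR adjusted p = 4.71e-05; ENSMUSG00000032359, chr9:90054152-90076089, plus strand). Ctsl, the gene of the endopeptidase cathepsin L, stood at 450, 402 and 371 CPM against 222, 198 and 215 CPM, a fall of 0.94 ± 0.16 on the log2 scale (edgeR adjusted p = 0.000397; ENSMUSG00000021477, chr13:64359337-64370890, minus strand). Ctsb fell by 0.74 and Ctsz by 0.50 on the log2 scale. Ctsk did not pass the test, at -0.50 (edgeR adjusted p = 0.0612).

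All of the other 3 proteases were lower, and their median change, -1.29, was larger than that of the cysteine cathepsins, -0.84. Ctsd encodes the aspartic protease cathepsin D and was among the most abundant of the 35 transcripts. It stood at 641, 632 and 622 CPM in Pole4-/- Trp53+/+ and at 199, 175 and 163 CPM in Pole4-/- Trp53-/- libraries. The groups were separated by more than the whole range within either, with a 3.53-fold difference (log2 -1.82 ± 0.21 SE, edgeR adjusted p = 1.68e-05; ENSMUSG00000007891, chr7:142375911-142388038, minus strand). Tpp1, the gene of a tripeptidyl peptidase lost in a childhood neuronal ceroid lipofuscinosis, fell by 1.29 and Ctsa, whose product protects neuraminidase and beta-galactosidase in a complex, by 1.22 on the log2 scale.

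Among the 10 glycosidases, which remove sugars from glycoproteins, glycolipids and glycosaminoglycans, 8 were lower. Fuca1, which encodes alpha-fucosidase, had the lowest p of the 35 genes. Its levels were 35.7, 35.5 and 32.5 CPM against 18.7, 18.7 and 16.7 CPM (1.92-fold, log2 -0.94 ± 0.10 SE, edgeR adjusted p = 7.64e-06; ENSMUSG00000028673, chr4:135920735-135940311, plus strand). Hexa, the gene of the alpha subunit of beta-hexosaminidase that is defective in Tay-Sachs disease, went from 108, 118 and 117 CPM to 61.3, 56.7 and 57.1 CPM (1.96-fold, log2 -0.97 ± 0.12 SE, edgeR adjusted p = 2.14e-05; ENSMUSG00000025232, chr9:59539540-59565109, plus strand). In both genes the libraries were tightly grouped within each genotype and well apart between them.

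Glb1 (ENSMUSG00000045594, chr9:114401076-114474898, plus strand) stood at 50.3, 46.7 and 52.2 CPM in Pole4-/- Trp53+/+ and at 26.1, 26.2 and 23.7 CPM in Pole4-/- Trp53-/- libraries. Its RNA was thus 1.96-fold lower upon loss of Trp53 (log2 -0.97 ± 0.15 SE, edgeR adjusted p = 0.000125). The largest glycosidase changes were those of Naglu (-1.68), Idua (-1.54) and Gaa (-1.37), which degrade heparan sulfate, dermatan and heparan sulfate, and glycogen, respectively. Neu1 (-1.15), the gene of the lysosomal sialidase, and Man2b1 (-0.95), that of an alpha-mannosidase, were also lower. Gla, which encodes the alpha-galactosidase lost in Fabry disease, and Gusb did not pass the test, at -0.36 (edgeR adjusted p = 0.159) and -0.25 (edgeR adjusted p = 0.0564).

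Of the 4 sulfatases, which remove sulfate groups from glycosaminoglycans and sulfolipids, Arsa (-1.27), Sgsh (-1.17) and Ids (-0.76) were lower, and Arsb did not pass the test at -0.51 (edgeR adjusted p = 0.0567). All 6 genes of lipid degradation were lower within a narrow range, from -0.63 for Ppt1, a palmitoyl thioesterase, to -0.88 for Psap, the precursor of the saposins that present sphingolipids to their hydrolases. Smpd1, the acid sphingomyelinase gene, Lipa, the acid lipase gene, Asah1, the acid ceramidase gene, and Npc2, which binds cholesterol in the lumen, lay between them at -0.88, -0.82, -0.81 and -0.79.

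Of the 6 membrane proteins 5 were lower, by less than most of the hydrolases. Lamp1 stood at 557, 659 and 679 CPM in Pole4-/- Trp53+/+ against 463, 415 and 434 CPM in Pole4-/- Trp53-/- libraries (1.44-fold, log2 -0.53 ± 0.13 SE, edgeR adjusted p = 0.00332; ENSMUSG00000031447, chr8:13159161-13175338, plus strand). Lamp2, whose isoforms act in membrane integrity and chaperone-mediated autophagy, stood at 404, 387 and 431 CPM against 265, 248 and 229 CPM (1.65-fold, log2 -0.72 ± 0.20 SE, edgeR adjusted p = 0.00916; ENSMUSG00000016534, chrX:38401357-38456454, minus strand). The groups of both genes did not overlap. Scarb2, the gene of the receptor that carries beta-glucocerebrosidase to the lysosome, stood at 105, 109 and 102 against 60.7, 55.8 and 56.2 CPM, 1.83-fold lower (edgeR adjusted p = 0.000139; ENSMUSG00000029426, chr5:92441314-92506833, minus strand). Npc1, a cholesterol exporter, and Mcoln1, a calcium channel, changed by -0.72 and -0.71, while Cln3 differed by -0.11 (edgeR adjusted p = 0.736).

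Between 30 and 33 genes were called lower when each of the 18 libraries was left out in turn, and between 25 and 33 over 11 other ways of processing. With library totals in place of TMM scaling, which gave the 25, Lamp1, Lamp2, Ctsz, Ppt1 and Mcoln1 were not called. Ctsk, Arsb and Gusb were called in 6, 5 and 4 of the 11, and Gla and Cln3 in none of these fits. With Xist as a covariate for sex 30 genes were lower. Within each sex 1 of the genotypes had a single library, and these values carry no test. The female Pole4-/- Trp53+/+ library summed to 4782 CPM against 2720 and 2477 CPM in the female Pole4-/- Trp53-/- libraries, and the male libraries to 4827 and 4910 against 2502 CPM. Reads from exons shared with another gene are uncertain in their origin, on the same strand and, since the kit does not keep strand, also on the opposite strand. Such overlaps cover 34.4% of the exons of Ctsd (Gm49369, on the same strand), 32.3% of Arsb (Gm26527), 26.8% of Ctsl (Gm47123), 21.6% of Sgsh (Card14) and 18.8% of Arsa (C230037L18Rik).

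By promoter, 11 of the 13 genes with the core motif were called lower, as were 15 of the 18 genes with a promoter that lacked it. Of the 5 genes with the extended motif, Ctsa, Ctsd and Mcoln1 were called and Gla and Cln3 were not.

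**Figure D3:**
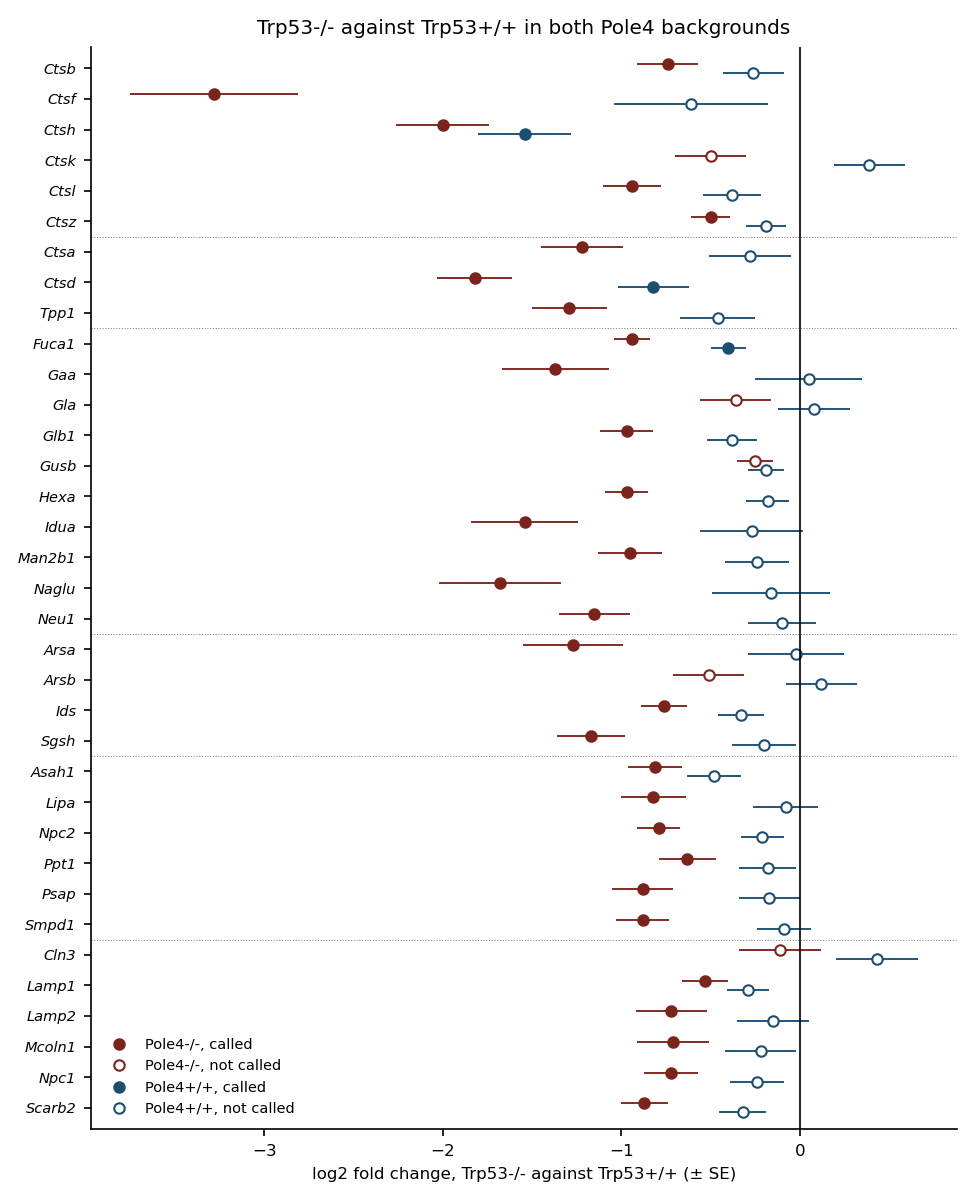
Log2 fold change of each lysosomal gene in Trp53-/- against Trp53+/+ MEFs, with its SE, in the Pole4-/- (red) and Pole4+/+ (blue) backgrounds, from edgeR. Filled points are called at an adjusted p under 0.05, which 30 genes reach in Pole4-/- cells and 3 in Pole4+/+ cells, and dotted lines separate the roles.

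The same loss of Trp53 in cells with intact Pole4 asks what TRP53 does in an otherwise unperturbed fibroblast. Here 3 of the 35 genes were called lower (8.57%), against 2.37% of all genes, and 0 were called higher, against 2.23%. Without adjustment 10 were lower and 0 higher at p under 0.05, and DESeq2 called 4 lower and 0 higher. The count of lower genes was 0 from the compared libraries alone and 20 with voom. The log2 fold change was negative for 30 genes, with a median of -0.21 against 0.03 over all genes. The libraries did not overlap in the lower direction for 3 genes, a share near the 8.31% of all genes. In the higher direction they did not overlap for 1 gene, Ctsk.

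Ctsh fell from 29.3, 30.6 and 34.9 CPM to 15.7, 9.04 and 7.36 CPM, a 2.9-fold difference with no overlap (log2 -1.54 ± 0.26 SE, edgeR adjusted p = 0.00293). Ctsd stood at 326, 353 and 482 CPM against 312, 173 and 173 CPM (1.76-fold, log2 -0.82 ± 0.20 SE, edgeR adjusted p = 0.0318). Fuca1 stood at 25.3, 26.9 and 28.6 against 22.9, 17.9 and 20.2 CPM (1.32-fold, log2 -0.40 ± 0.10 SE, edgeR adjusted p = 0.024). In Ctsd and Fuca1 library 1 of the Trp53-/- genotype lay just below the lowest Trp53+/+ library, and the other 2 well below it.

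Glb1, Ctsl, Lamp1 and Lamp2 did not pass the test in this background. Glb1 stood at 33.7, 31.3 and 44.4 CPM in Trp53+/+ and 33.9, 24.4 and 25.8 CPM in Trp53-/- libraries (log2 -0.38 ± 0.14 SE, edgeR adjusted p = 0.154). Ctsl stood at 263, 235 and 368 against 271, 196 and 196 CPM (-0.38 ± 0.16, edgeR adjusted p = 0.207). In both, library 1 of the Trp53-/- genotype lay within the Trp53+/+ range and the other 2 below it. Lamp1 stood at 501, 471 and 591 against 506, 405 and 365 CPM (-0.29 ± 0.12, edgeR adjusted p = 0.207), and Lamp2 at 283, 238 and 336 against 371, 224 and 178 CPM (-0.15 ± 0.20, edgeR adjusted p = 0.768).

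The count of 3 rested on single libraries. Without library 1 of Pole4+/+ Trp53-/- it was 26, and it was 1 without library 2 or library 3 of that genotype, or without library 2 or library 3 of Pole4+/+ Trp53+/+.

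**Figure D4:**
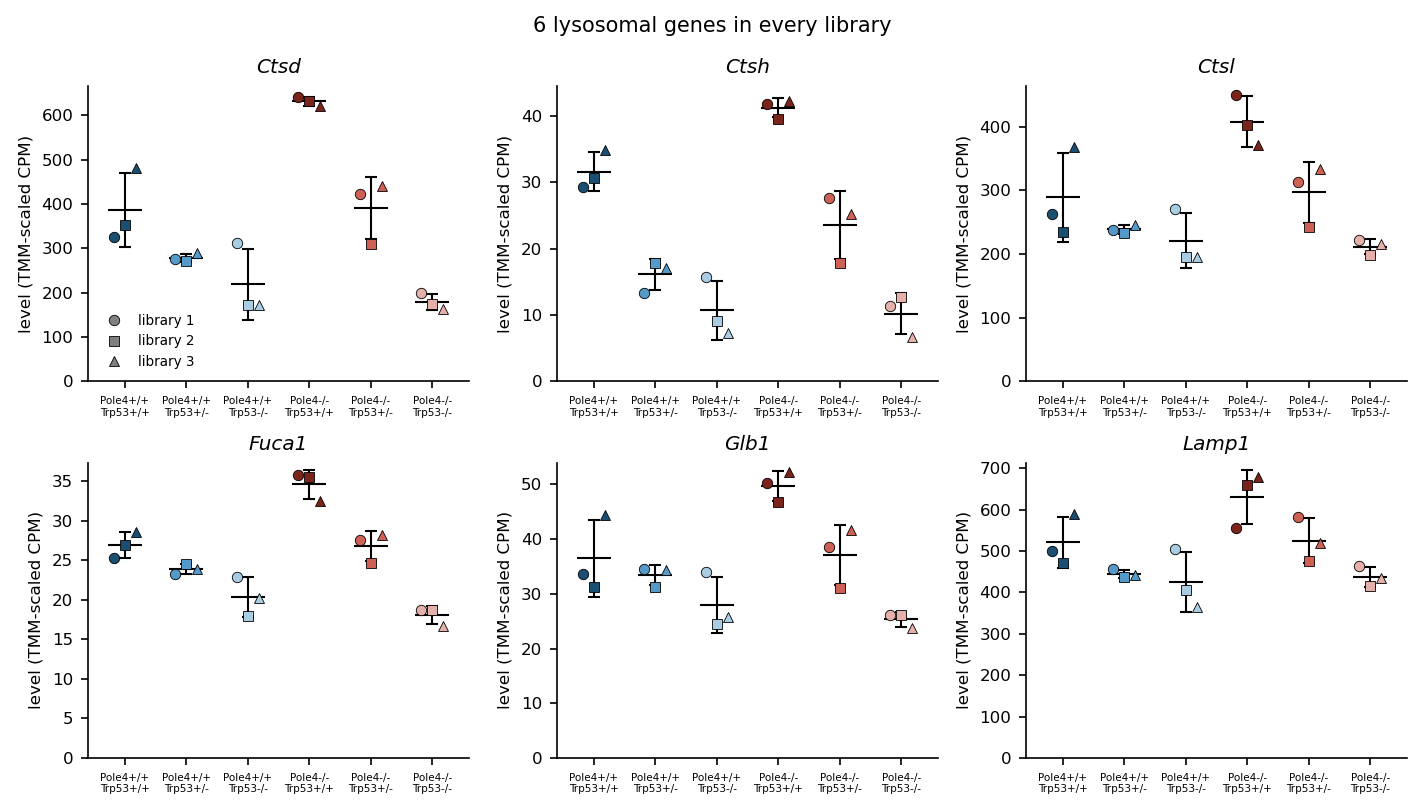
Level in TMM-scaled CPM of Ctsd, Ctsh, Ctsl, Fuca1, Glb1 and Lamp1 in each library of the 6 genotypes, with the mean (horizontal bar) and SD (error bars) of 3 libraries. In Ctsd the Pole4-/- Trp53+/+ libraries lie at 622 to 641 CPM and the Pole4-/- Trp53-/- libraries at 163 to 199 CPM, and library 1 of Pole4+/+ Trp53-/- lies above the other 2 of its genotype in all 6 genes.

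The difference between the effects of Trp53 loss in the 2 Pole4 backgrounds was tested directly as an interaction. Its log2 value was negative for all 35 genes, with a median of -0.60 against -0.02 over all genes. At an adjusted p under 0.05, edgeR called 0 of the 35 genes lower and 0 higher, against 0.153% and 0.178% of all genes. At an unadjusted p under 0.05 it gave 24 lower and 0 higher, while DESeq2 called 16 lower and limma's voom 10. The lowest edgeR adjusted p was 0.0502, for Hexa, whose Trp53-/- effect was -0.97 in Pole4-/- and -0.18 in Pole4+/+ cells (difference -0.79 ± 0.16 SE). Ctsf followed with a difference of -2.67 ± 0.63 (SE, edgeR adjusted p = 0.0522). For Ctsh the difference was -0.46 ± 0.36 (SE, edgeR adjusted p = 0.41). Without library 3 of Pole4+/+ Trp53-/- 22 genes were called lower, without library 2 of that genotype 18, without library 3 of Pole4+/+ Trp53+/+ 4, without library 2 of Pole4-/- Trp53+/- 2 and without library 1 of Pole4+/+ Trp53-/- 1.

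Loss of a single Trp53 copy in Pole4-/- cells went in the same direction, and this comparison shares its Pole4-/- Trp53+/+ libraries with the loss of both copies. Of the 35 genes 4 were called lower (11.4%) and 0 higher, against 2.16% and 2.96% of all genes. Without adjustment 21 were lower and 0 higher, and DESeq2 called 9 lower and 0 higher. The median log2 fold change was -0.42 against -0.01 over all genes, and the libraries did not overlap for 28 genes, against 18.9% of all genes.

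Scarb2 stood at 77.9, 58.8 and 82.1 CPM in Pole4-/- Trp53+/- libraries, below the 102 to 109 CPM of Pole4-/- Trp53+/+ (log2 -0.53 ± 0.13 SE, edgeR adjusted p = 0.0361). Hexa stood at 87.4, 76.5 and 85.3 CPM (-0.46 ± 0.12 SE, edgeR adjusted p = 0.0368), Fuca1 at 27.5, 24.6 and 28.2 CPM (-0.37 ± 0.10 SE, edgeR adjusted p = 0.0396) and Ctsf at 5.56, 2.62 and 5.71 CPM (-1.59 ± 0.42 SE, edgeR adjusted p = 0.0444). The mean of each of the 4 lay between those of the homozygous genotypes, and library 2 of Scarb2 reached into the range of Pole4-/- Trp53-/- (55.8 to 60.7 CPM). Ctsd stood at 422, 310 and 440 CPM and Glb1 at 38.6, 31.1 and 41.6 CPM. Both lay below every Pole4-/- Trp53+/+ library, yet neither passed the test (-0.69, edgeR adjusted p = 0.0579, and -0.42, edgeR adjusted p = 0.0909). Ctsl stood at 313, 243 and 334 CPM (-0.46, edgeR adjusted p = 0.1), Lamp1 at 582, 476 and 519 CPM (-0.26, edgeR adjusted p = 0.194) and Lamp2 at 306, 262 and 342 CPM (-0.42, edgeR adjusted p = 0.191).

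Of all genes called in this comparison 42.2% were lower, and 3.01% with library totals in place of TMM scaling, where 0 of the 35 genes were called. The 4 calls lie near the threshold. The count was 0 with Xist as a covariate for sex, 16 with the ribosomal RNA share as a covariate, 21 from the compared libraries alone and 25 with voom. It was 22 without library 1 of Pole4+/+ Trp53-/-, which belongs to neither genotype, 8 without library 3 and 5 without library 2 of that genotype, 3 without library 3 of Pole4+/+ Trp53+/+ or of Pole4-/- Trp53-/-, and 2 or fewer without any of the 13 other libraries, among them each library of both genotypes compared.

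In Pole4+/+ cells the loss of a single Trp53 copy gave 0 lower and 0 higher calls among the 35 genes by edgeR, against 0.407% and 0.496% of all genes. The unadjusted test gave 4 lower and 1 higher, and DESeq2 called 1 lower and 1 higher. The median was -0.11 against 0.00 over all genes, and 10 genes had libraries that did not overlap in the lower direction, against 10.1% of all genes. The lowest edgeR adjusted p was that of Ctsk, 0.0514, and in the upward direction. Ctsk stood at 23.0, 16.1 and 16.4 CPM in Pole4+/+ Trp53+/- against 10.3, 8.07 and 12.1 CPM in Pole4+/+ Trp53+/+ libraries (log2 0.87 ± 0.20 SE), apart from the other genes. The 3 heterozygous libraries are male and the 3 control libraries female, so that sex and genotype cannot be told apart here.

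Loss of Pole4 alone was compared in Trp53+/+ cells. Of the 35 genes 3 were called higher (8.57%) and 0 lower, against 1.29% and 2.7% of all genes. Without adjustment 30 were higher and 0 lower, and DESeq2 called 12 higher and 0 lower. The count of higher genes was 20 with the ribosomal RNA share as a covariate, 24 from the compared libraries alone and 33 with voom. Ribosomal RNA took 7.11 to 42.5% of the Pole4-/- Trp53+/+ and 5.81 to 11.2% of the Pole4+/+ Trp53+/+ libraries. The log2 fold change was positive for 34 genes, with a median of 0.45 against 0.01 over all genes, and the libraries did not overlap in the higher direction for 28 genes, against 19.4% of all genes. These are the same Trp53+/+ libraries that serve as controls of the Trp53 comparisons.

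Hexa stood at 108, 118 and 117 CPM in Pole4-/- Trp53+/+ against 70.5, 71.8 and 86.0 CPM in Pole4+/+ Trp53+/+ libraries (1.5-fold, log2 0.59 ± 0.12 SE, edgeR adjusted p = 0.0203). Ctsf stood at 16.1, 14.4 and 11.4 against 4.05, 3.72 and 5.93 CPM (3.08-fold, log2 1.62 ± 0.43 SE, edgeR adjusted p = 0.0462), and Fuca1 at 35.7, 35.5 and 32.5 against 25.3, 26.9 and 28.6 CPM (1.29-fold, log2 0.36 ± 0.10 SE, edgeR adjusted p = 0.0462). The libraries of all 3 genes were apart. The levels of Ctsd and Glb1 given above were 1.63-fold and 1.36-fold higher in the Pole4-/- cells, again with libraries apart, and did not pass the test (edgeR adjusted p = 0.0597 and 0.0803). For Ctsl (1.41-fold), Lamp1 (1.21-fold) and Lamp2 (1.42-fold) the edgeR adjusted p was 0.0833, 0.175 and 0.127, and of these only the libraries of Lamp1 overlapped.

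Of all genes called in this comparison 67.7% were lower, and 97.5% with library totals in place of TMM scaling, where 0 of the 35 genes were called and Lamp1 turned to -0.05 on the log2 scale. The count also depended on single libraries. It was 25 without library 1 of Pole4+/+ Trp53-/-, 9 without library 3 of Pole4+/+ Trp53+/+, 5 without library 3 of Pole4+/+ Trp53-/-, 4 without library 2 of Pole4+/+ Trp53-/- or of Pole4-/- Trp53+/-, and 1 or 0 without any of the 13 other libraries. All Pole4+/+ Trp53+/+ libraries are female and 2 of the 3 Pole4-/- Trp53+/+ libraries are male, and with Xist as a covariate the count was 0.

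Loss of Pole4 was also compared in Trp53-/- cells. Between Pole4-/- Trp53-/- and Pole4+/+ Trp53-/- MEFs, edgeR called 0 of the 35 genes lower and 0 higher, against 0.0% and 0.00637% of all genes. The unadjusted test gave 7 lower and 0 higher, and DESeq2 and voom called 0. The log2 fold change was negative for 32 genes, with a median of -0.17 against -0.02 over all genes, and ranged from -1.04 for Ctsf to 0.08. With library totals in place of TMM scaling these medians were -0.61 and -0.44. Ribosomal RNA took 24.7 to 30.0% of the Pole4-/- Trp53-/- and 1.82 to 13.1% of the Pole4+/+ Trp53-/- libraries. With ribosomal RNA rows left out, the medians were -0.18 for the 35 genes and -0.02 over all genes. The part of ribosomal RNA in the difference was not tested beyond refits of this kind. The 3 Pole4+/+ Trp53-/- libraries spread from 2333 to 3647 CPM in their sum, around the 2477 to 2720 CPM of the Pole4-/- Trp53-/- libraries.

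**Figure D5:**
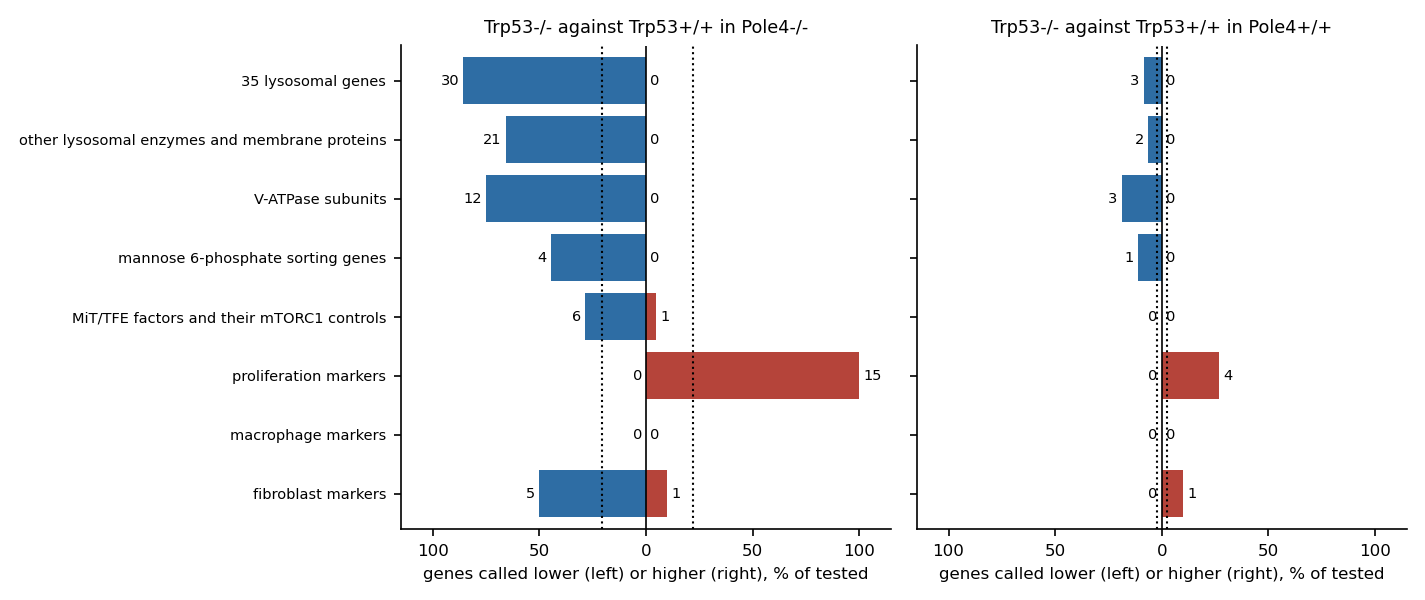
Share of tested genes called lower (left of 0, blue) or higher (right of 0, red) in Trp53-/- against Trp53+/+ MEFs of the Pole4-/- (left panel) and Pole4+/+ (right panel) backgrounds, for the 35 lysosomal genes and 7 other lists, with the number of genes beside each bar and the share of all genes tested as dotted lines. In the Pole4-/- background 30 of 35 lysosomal genes were lower and 15 of 15 proliferation markers higher.

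Other parts of the lysosomal system were compared in the same fits, in which 20.8% of all genes were lower and 21.8% higher upon loss of Trp53 in Pole4-/- cells, and 2.37% and 2.23% in Pole4+/+ cells. Of 32 further lysosomal enzymes and membrane proteins, 21 were lower and 0 higher upon loss of Trp53 in Pole4-/- cells (median -0.54), and 2 lower and 0 higher in Pole4+/+ cells (median -0.12). The largest changes in Pole4-/- cells were those of Hyal1, a hyaluronidase (-2.52), and Aga, which cleaves asparagine-linked glycans (-1.90). Aga stood at 44.6, 44.7 and 42.8 CPM against 12.3, 12.9 and 10.1 CPM, and was called in Pole4+/+ cells as well (-0.86, edgeR adjusted p = 0.0252).

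Of 16 subunits of the V-ATPase, the proton pump, 12 were lower in Pole4-/- cells (median -0.42, against 20.8% of all genes) and 3 in Pole4+/+ cells (median -0.27, against 2.37%), and 0 were higher in either. Atp6v0d1 was lower in both backgrounds, by 0.80 and 0.46 on the log2 scale, and so was Atp6v1e1, by 0.55 and 0.43. Of 9 genes of the mannose 6-phosphate pathway 4 were lower in Pole4-/- cells, against 20.8% of all genes, and 1, Gnptab (-0.30), in Pole4+/+ cells, against 2.37%. Igf2r, the gene of the cation-independent mannose 6-phosphate receptor, fell from 582, 614 and 568 to 276, 187 and 233 CPM in Pole4-/- cells (log2 -1.34, edgeR adjusted p = 0.000282).

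Of 21 genes for MiT/TFE factors and their mTORC1 controls, 6 were lower and 1 higher in Pole4-/- cells (median -0.03), a share of lower genes near the 20.8% of all genes, and 0 were called in Pole4+/+ cells by edgeR, where an unadjusted p under 0.05 also gave 0 lower and 0 higher. Tfeb, at 1.84 to 3.40 CPM over all 18 libraries, differed by -0.22 ± 0.26 in Pole4-/- and 0.10 ± 0.25 in Pole4+/+ cells (SE, edgeR adjusted p = 0.536 and 0.889). Tfe3, at 36.5 to 46.0 CPM, differed by 0.09 ± 0.07 and -0.06 ± 0.07 (SE, edgeR adjusted p = 0.339 and 0.712). Mitf stood at 4.49, 4.51 and 4.82 CPM in Pole4-/- Trp53+/+ against 2.45, 2.09 and 2.06 CPM in Pole4-/- Trp53-/- libraries (log2 -1.06 ± 0.24 SE, edgeR adjusted p = 0.00241), and differed by 0.06 ± 0.23 in Pole4+/+ cells (SE, edgeR adjusted p = 0.925). Rragd, the gene of a Rag GTPase that recruits mTORC1 to the lysosome, was also lower in Pole4-/- cells (-1.40, edgeR adjusted p = 0.0044). The activity of MiT/TFE factors is set largely by their location in the cell, which RNA levels do not show.

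Of 15 proliferation markers all 15 were higher in Pole4-/- Trp53-/- than in Pole4-/- Trp53+/+ MEFs (median 1.68), against 21.8% of all genes. Mcm5 (1.97) and Ccna2 (1.89) were followed by Bub1 and Tk1 (both 1.80). Upon loss of Trp53 in Pole4+/+ cells 4 of the 15 were higher, against 2.23% of all genes. Cdkn1a, which encodes the cell-cycle inhibitor p21 and is the best known TRP53 target, stood at 342 to 363 CPM in Pole4-/- Trp53+/+ and 232 to 251 CPM in Pole4+/+ Trp53+/+ libraries, against 5.17 to 12 CPM in all 6 Trp53-/- libraries. Of 11 genes linked with senescence, 3 were lower and 3 higher in the Pole4-/- background, against 20.8% and 21.8% of all genes. Lower were Cdkn1a (-5.72), Igfbp3 (-1.43) and Cdkn2b (-0.67). Higher were Hmgb2 (1.81), Lmnb1 (1.67) and Hmgb1 (1.13), whose products are typically lost in senescent cells.

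Macrophages are rich in lysosomes, and their markers were therefore followed in the same libraries. The 14 markers summed to 11.8 to 32.7 CPM in Pole4-/- Trp53+/+, where the lysosomal genes were highest, and to 6.08, 72.6 and 61.7 CPM in Pole4+/+ Trp53+/+ libraries. Of the 13 that could be tested, edgeR called 0 lower and 0 higher in either Trp53-/- comparison, and an unadjusted p under 0.05 also gave 0. None of the 14 was at 0 in every library, and Csf1r, the gene of the macrophage growth factor receptor, ranged from 0.786 to 8.89 CPM. Of 10 fibroblast markers, 5 were lower upon loss of Trp53 in Pole4-/- cells, where 20.8% of all genes were, Col3a1 (-1.40), Fn1 (-1.19) and Col1a2 (-0.75) by the most, and Pdgfra was higher (1.49). Their part in the lysosomal differences was not tested.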

How the data were processed

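The authors extracted RNA from MEFs, prepared paired-end libraries without strand information (Ovation RNA-Seq System V2), trimmed the reads, aligned them with STAR 2.5.2 to GRCm38 and counted them per gene with RSEM 1.3.0, per the submitters' processing notes and the study's methods. The deposited values are RSEM's expected counts for 51912 genes in 18 libraries, with no normalization; RSEM divides reads among genes that share sequence, and 6.14% of the values are not whole. They were rounded here.

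Gene symbols, positions and exon lengths came from GENCODE's annotation of GRCm38 (51633 identifiers matched). Genes were filtered with filterByExpr, scaled by TMM and tested with edgeR 4.0.16 (robust quasi-likelihood, 1 mean per genotype over 18 libraries, 12 residual degrees of freedom) in R 4.3.3, after the code was tested on simulated data. Genotypes were compared in 6 pairs and 1 interaction. Library totals ran from 9535971 to 35319918 counts, and precision of low genes is limited by counting error.

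Alternatives were DESeq2 1.42.0, limma 3.58.1 (voom), other scalings and filters, sex and ribosomal RNA covariates, a replicate block, and leaving out each library. The 35 genes and the other lists were chosen with earlier results of these data known. Genes given in full are Glb1, Ctsd, Ctsl, Lamp1, Lamp2 and the called genes of lowest p, up to 5 in each comparison; from the other lists, the extremes among called genes and Tfeb, Tfe3, Mitf, Trp53, Cdkn1a and Pole4. Genes named outside this rule (Psap, Ctsk, Cln3 and others at their level or change, Pdgfra, Lum, Dcn, Csf1r) were chosen after their values were seen. Some genes of the other lists that this rule names are not reported here.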

Additional observations from a re-analysis of the deposited data

How the results depend on the processing

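The count of 30 lysosomal genes lower upon loss of Trp53 in Pole4-/- cells stayed between 25 and 33 under the alternatives run. The counts of the other comparisons moved, except for Pole4-/- in Trp53-/- cells, where the count stayed at 0 with each library left out. With all libraries kept, 592 values kept their direction and side of the threshold, 33 became weaker, 19 stronger and 5 reversed; with 1 library left out, 960 kept them, 85 became weaker, 13 stronger and 4 reversed. For Trp53-/- in Pole4+/+ cells (3 lower), library totals and no filter each gave 1, a fit of only the compared libraries 0 and voom 20 (1 to 26 with a library left out). For Trp53+/- in Pole4-/- cells (4 lower), totals, no filter and an Xist covariate gave 0, DESeq2 9, the compared libraries alone 21, voom 25 and a ribosomal RNA covariate 16 (0 to 22). For Trp53+/- in Pole4+/+ cells, the compared libraries alone, voom and DESeq2 gave 1 lower, and no filter, the ribosomal RNA covariate, voom and DESeq2 gave 1 higher (0 to 1 for both). For Pole4-/- in Trp53+/+ cells (3 higher), totals and the Xist covariate gave 0, no filter 1, DESeq2 12, the ribosomal RNA covariate 20, the compared libraries alone 24 and voom 33 (0 to 25). For the interaction (0 lower), no filter gave 1, upper-quartile scaling 2, leaving out ribosomal RNA rows 2, a mean of at least 50 counts 6, voom 10 and DESeq2 16 (0 to 22). The ribosomal RNA covariate and the omission of ribosomal RNA rows were chosen after seeing the data. The cause of these shifts was not tested.

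Some single genes reversed. Tfe3 was 0.00 with upper-quartile scaling in Pole4-/- cells and 0.02 with library totals in Pole4+/+ cells. Lamp1 was -0.05 with totals for Pole4-/- in Trp53+/+ cells. In Pole4+/+ cells Tfeb was -0.15 and Mitf -0.10 with voom, and with a library left out Tfeb ranged from -0.14 to 0.23 (-0.05 in another reversed fit), Mitf from -0.32 to 0.27 and Lamp2 from -0.54 to 0.05. With library totals the median of all genes was -0.44 for Pole4-/- in Trp53-/- cells, 0.29 for Trp53+/- in Pole4-/- cells and -0.28 for Pole4-/- in Trp53+/+ cells, against -0.02, -0.01 and 0.01 with TMM. Relative to that median the lysosomal genes stood at -0.39 and 0.41 in the last 2, against -0.41 and 0.44 with TMM. The share of calls that were lower over all genes went with it from 42.2% to 3.01% and from 67.7% to 97.5%.

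Replicate numbers did not pair the samples: deviations of same-numbered libraries correlated between -0.114 and 0.421, and not above 0.1 in all pairs of any comparison. With a replicate block 32 genes were lower upon loss of Trp53 in Pole4-/- cells and 3 in Pole4+/+ cells, 7 lower upon loss of 1 copy in Pole4-/- cells, 1 higher in Pole4+/+ cells, 7 higher upon loss of Pole4 and 5 lower for the interaction. Depth limits mainly Ctsf and Cln3, with as few as 15 and 32 counts in a library.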
